A study of Rattus norvegicus with 9 samples.

Results

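Glycolysis, lactate and pentose phosphate genes were followed from embryonic rat midbrain into primary culture. The group was a list of 41 genes, chosen by function and found on the array by gene symbol. Of these, 38 were read by a tested probe set, a group of short probes that together report 1 transcript, among 10411 genes named on the array. Where a gene had several probe sets, the brightest, by its mean over all 9 arrays, was taken. Pcx was found as Pc, its current rat symbol. Gapdh was read only by 3 control probe sets of the array and is given apart. Pkm was read only by a probe set that also names a pseudogene, and Dlat had no probe set under its name, so neither was analysed here.

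The embryos came from 4 dams at embryonic day 11 and, by the labels, were shared out among 3 groups. Ventral midbrains of a group were used directly as pooled tissue (MesE11, 3 arrays) or grown as dissociated cells, in duplicate, for 9 days in vitro (MesPC, 6 arrays). No strain, genotype or treatment is named. The labels speak of 3 arrays with independent culture samples while 6 are listed, so some culture arrays may come from duplicate dishes, and a p-value reflects no more than the spread among these arrays, which may be technical. Levels are given as log2 intensities and differences as MesPC minus MesE11, and an error after ± is the standard error of limma's fit unless stated otherwise. Precision is limited by how few arrays there are.

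Glycolysis splits glucose into pyruvate in the cytosol and yields ATP without oxygen. Pyruvate then becomes lactate, which lactate dehydrogenase makes and monocarboxylate transporters carry, or enters mitochondria through pyruvate dehydrogenase or pyruvate carboxylase. The pentose phosphate pathway branches off early to make NADPH and ribose. In brain, neurons and astrocytes use different isoforms of several of these enzymes, and the transcription factor HIF-1 raises many of the genes when oxygen is short.

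The arrays differed in more than the label. Culture arrays 1 to 3 correlated with each other at 0.997 to 0.998 across probe sets and with culture arrays 4 to 6 at 0.982 to 0.987, and the labels name nothing that parts them. Of 9 neuron markers measured, 0 were higher and 4 lower in culture, and their linear intensities added up to 56814 to 60552 on tissue arrays. The same sum was 20494 to 23302 for MesPC replicates 1 to 3, and for replicates 4 to 6 it was 45685 to 47597. Neuron markers were thus measured in tissue and in both kinds of culture array. Astrocyte markers were higher in 5 of 9 cases with 0 lower (summed 10032 to 12941 in tissue, 16012 to 19901 in culture), though Gfap, the astrocyte filament, did not pass. Fibroblast markers were higher in 8 of 9 cases and lower in 1 (summed 8841 to 10234 and 39850 to 44408), and proliferation markers in 8 of 8 (summed 5334 to 6052 in tissue, 14487 to 15734 on MesPC replicates 1 to 3, 10120 to 11320 on replicates 4 to 6). Erythroid markers were lower in 7 of 7 cases (summed 23413 to 28269 and 1047 to 1319), endothelial markers in 4 of 6 (2418 to 2565 and 899.5 to 1140), microglial markers in 4 of 7 (1802 to 1916 and 1341 to 1489) and skeletal muscle markers in 4 of 8 (1218 to 1284 and 837.4 to 883.6). With the random block described below, 3 neuron, 2 microglial, 2 skeletal muscle, 6 erythroid and 4 endothelial markers stayed lower, and 5 astrocyte, 7 fibroblast and 8 proliferation markers stayed higher. In such mixed samples, fewer cells of a type and less RNA per cell cannot be told apart, and the part of these cell types in the results below was not tested.

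Of the 38 genes, 10 rose, 9 fell and 19 did not pass the threshold in culture (limma, Benjamini-Hochberg adjusted p under 0.05). These are 19 of 38, where 44.6% of all genes with 1 probe set each passed (21.9% higher and 22.7% lower), so the count is near that of the array as a whole. The median difference was −0.027 over the 38 genes and −0.056 over all genes, and the median size of the difference was 0.27 against 0.21. Of the 19 called genes, 6 differed by 0.5 or more and 1, Eno2, by 1 or more. The share of all genes past these sizes was not counted. Slc2a1 and Slc2a3, which import glucose, fell. Ldhb and Ldha, subunits of lactate dehydrogenase, and Slc16a1, a lactate transporter, rose, while the lactate exporter Slc16a3 fell. Pcx, pyruvate carboxylase, rose most, by 0.88 ± 0.11 or 1.84-fold.

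Many of these calls were thin. With a random block for culture arrays 1 to 3, culture arrays 4 to 6 and the tissue arrays, 5 genes passed as higher (Pcx, Ldhb, Pdk2, Pfkfb3 and Pgk1) and 2 as lower (Slc2a1 and Slc2a3), against 22.4% of all genes in either direction. The same 7 genes, with Pdha1 and Pgd, kept their calls without any 1 of the 9 arrays. The other 10 lost it without at least 1 of them. On their dimmer probe sets Pfkfb3, Pdk2 and Pdha1 did not pass (limma adjusted p = 0.149, 0.965 and 0.0564). Groups did not overlap for 19 of the 38 genes, 9 above and 10 below tissue, and for 44.4% of all genes.

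**Figure D1:**
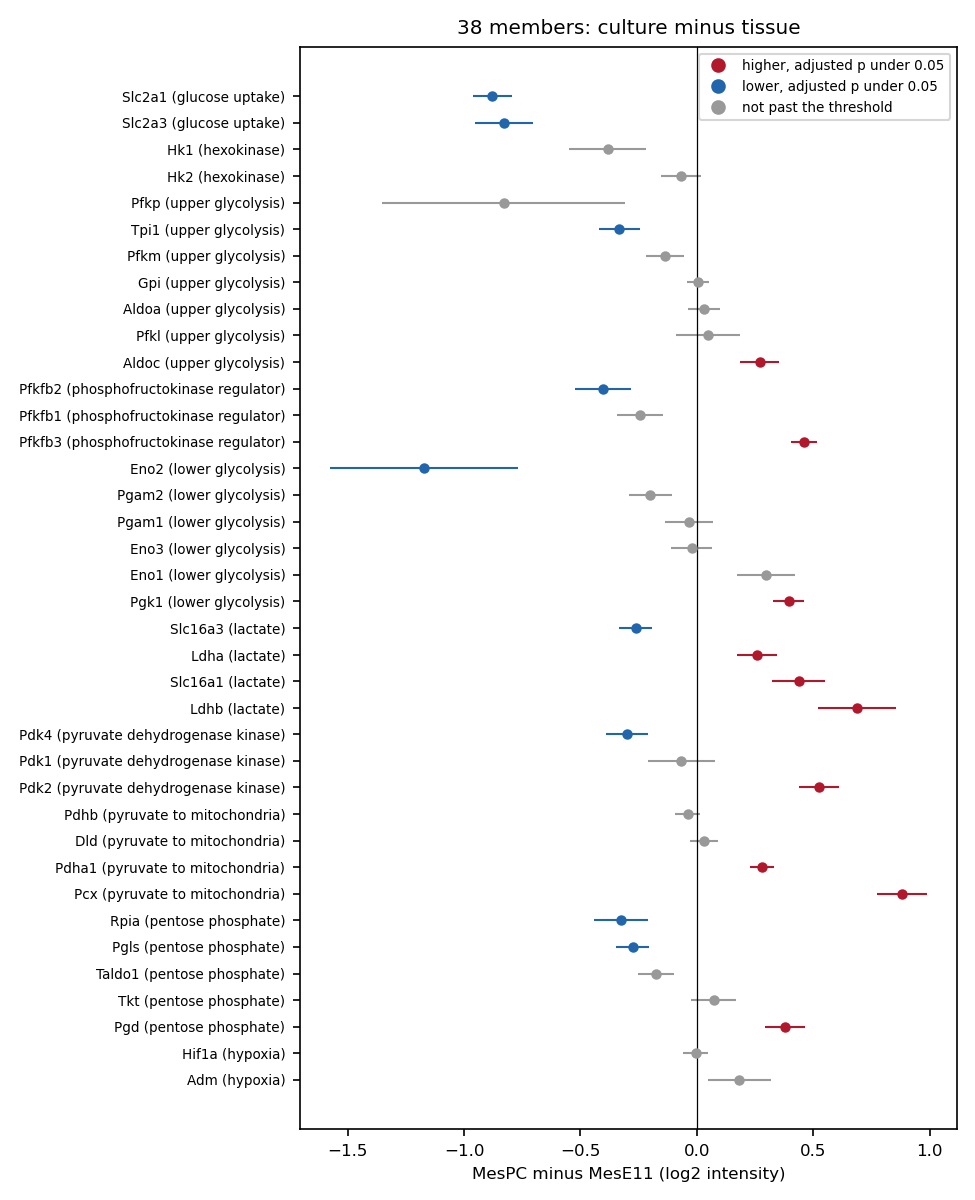
Difference between culture and tissue (MesPC minus MesE11, log2 intensity, x axis) for the 38 genes, grouped by role, as points with standard errors from limma; red and blue mark genes higher or lower past the threshold and grey those not past it. Pcx lies farthest right at 0.88, Eno2 farthest left at −1.17, and the bars of Eno2 and Pfkp are the widest.

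The promoters of these genes are shown here because HIF-1 is known to raise glycolytic genes through elements with the core ACGTG. The windows are the 250 bases before the gene start in RefSeq (GRCr8), 5′ to 3′ on the gene's strand, with ACGTG and its reverse complement CACGT in capitals; where both overlap, the letters read CACGTG, which is also the E-box bound by Myc and USF factors. Of 37 listed genes with a window, 15 (40.5%) held the motif on either strand, against 22.3% of 8630 array genes with a window and 16.6% of 33469 windows of this length. A match is a description of letters, not a binding site. The printed genes are a lactate dehydrogenase and a lactate transporter that rose, and a glucose transporter and an enolase that fell. They were chosen to show both directions among genes that hold the motif. Of 8 risen genes with a window 5 held it, of 7 fallen genes 2, and of 19 that did not pass 6. Ldha lies at chr1:106507842-106508091 (+), Slc16a1 at chr2:194812410-194812659 (+), Slc2a1 at chr5:138002272-138002521 (+) and Eno2 at chr4:159267221-159267470 (−). Counted back from the gene start, matches began at −87, −86 and −73 in Ldha, at −216 and −215 in Slc16a1, at −51 in Slc2a1 and at −139 in Eno2.
Ldha: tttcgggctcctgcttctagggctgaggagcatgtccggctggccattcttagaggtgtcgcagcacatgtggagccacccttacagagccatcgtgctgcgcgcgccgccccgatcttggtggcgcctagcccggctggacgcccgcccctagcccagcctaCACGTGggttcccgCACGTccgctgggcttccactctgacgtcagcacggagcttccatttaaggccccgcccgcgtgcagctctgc
Slc16a1: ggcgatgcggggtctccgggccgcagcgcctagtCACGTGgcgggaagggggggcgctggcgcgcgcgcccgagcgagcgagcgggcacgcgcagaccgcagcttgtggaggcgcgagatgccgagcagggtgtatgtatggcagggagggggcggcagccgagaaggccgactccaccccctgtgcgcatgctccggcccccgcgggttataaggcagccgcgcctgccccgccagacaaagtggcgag
Slc2a1: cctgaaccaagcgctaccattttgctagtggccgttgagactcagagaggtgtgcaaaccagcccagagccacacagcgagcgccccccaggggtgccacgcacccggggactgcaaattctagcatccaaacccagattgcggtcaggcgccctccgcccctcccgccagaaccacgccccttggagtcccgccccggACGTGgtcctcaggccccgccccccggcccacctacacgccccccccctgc
Eno2: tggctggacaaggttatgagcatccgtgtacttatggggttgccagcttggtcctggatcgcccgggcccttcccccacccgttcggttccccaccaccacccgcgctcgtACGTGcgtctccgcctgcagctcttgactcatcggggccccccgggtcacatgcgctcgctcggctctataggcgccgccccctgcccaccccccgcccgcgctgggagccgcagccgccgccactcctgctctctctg

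Both glucose transporters were lower in culture. Slc2a1, the transporter GLUT1 of glia, endothelium and red cells, read 10.59, 10.72 and 10.60 in tissue, 9.96, 9.88 and 9.76 in culture arrays 1 to 3 and 9.61, 9.65 and 9.69 in arrays 4 to 6. Every culture array lay below every tissue array, and arrays 4 to 6 lay below arrays 1 to 3. It fell by 0.88 ± 0.08 (1.84-fold, limma adjusted p = 3.29e-05), and its window above holds 1 ACGTG. Slc2a3, the neuronal transporter GLUT3, read 7.77, 7.57 and 7.75 in tissue, 6.79, 6.53 and 6.79 in culture arrays 1 to 3 and 7.17, 6.98 and 6.98 in arrays 4 to 6. Here too no culture array reached tissue, but arrays 1 to 3 were the lower ones. Slc2a3 fell by 0.83 ± 0.12 (1.78-fold, limma adjusted p = 0.000574), and a dimmer probe set fell by 0.36 ± 0.11. On culture arrays 1 to 3 Slc2a3 lay close to 6.62, the highest mean of bacterial control probe sets, which no rat RNA should bind. MesPC replicate 2 lay below it, and the dimmer probe set had a culture mean of 6.64. The size of the fall is therefore uncertain. The falls of Slc2a1 and Slc2a3 stood beside lower erythroid and endothelial markers in culture, with the ranges given above. Astrocyte markers went the other way, with 5 of 9 higher and 0 lower. For arrays 1 to 3 minus arrays 4 to 6, Slc2a3 differed by −0.34 and the neuron markers by a median of −1.12. The medians of the erythroid, endothelial and astrocyte markers in that difference were 0.19, 0.21 and 0.077, and the part of any of them was not tested.

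Of the hexokinases, which trap glucose as glucose 6-phosphate, neither passed. Hk1, the main form in brain, read 11.21, 11.27 and 11.31 in tissue, 10.45, 10.57 and 10.80 in culture arrays 1 to 3 and 11.13, 11.19 and 11.13 in arrays 4 to 6. All culture values were below tissue, narrowly so in arrays 4 to 6, and the difference was −0.38 ± 0.17 (limma adjusted p = 0.0864). Hk1 is also read by control probe sets: the one at its 3′ end was −0.45 (exact permutation test, two-sided p = 0.0238, adjusted over the 6 control probe sets of Hk1 and Gapdh 0.0357), the middle one −0.11 (adjusted p = 0.0571, exact) and the one at its 5′ end −0.15 (adjusted p = 0.310, exact). Hk2, the form of muscle and proliferating cells, read 6.99, 7.06 and 7.18 in tissue, 7.08, 7.15 and 7.15 in arrays 1 to 3 and 6.96, 6.85 and 6.87 in arrays 4 to 6. Its groups overlapped, with a difference of −0.068 ± 0.085 (limma adjusted p = 0.533).

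In the upper steps 1 of 7 genes rose, 1 fell and 5 did not pass. Tpi1, triosephosphate isomerase, read 12.69, 12.62 and 12.30 in tissue, 12.16, 12.18 and 12.07 in culture arrays 1 to 3 and 12.28, 12.25 and 12.28 in arrays 4 to 6. The highest culture values lay just under the lowest tissue array, and it fell by 0.33 ± 0.09 (limma adjusted p = 0.0143, or 0.138 with the random block and up to 0.0712 without 1 array). Pfkp, the platelet-type phosphofructokinase that is abundant in brain, did not pass over all 6 culture arrays (−0.83 ± 0.52, limma adjusted p = 0.214). Its values are given with the culture arrays below. Gpi, Pfkl, Pfkm and Aldoa, which catalyse neighbouring steps, differed by 0.0042 ± 0.047, 0.049 ± 0.137, −0.14 ± 0.08 and 0.032 ± 0.069, and none passed.

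The bifunctional enzymes that set the level of fructose 2,6-bisphosphate, the main activator of phosphofructokinase, went apart. Pfkfb3, the form known for high kinase activity, read 8.50, 8.52 and 8.57 in tissue, 8.98, 8.96 and 8.95 in culture arrays 1 to 3 and 9.13, 8.96 and 8.96 in arrays 4 to 6. All culture arrays lay above tissue and the culture sets were alike. It rose by 0.46 ± 0.05 (1.38-fold, limma adjusted p = 0.00014). Its dimmer probe set read 0.22 ± 0.12 higher and did not pass. Pfkfb2, the heart form, read 8.72, 8.71 and 8.60 in tissue, 8.15, 7.92 and 8.22 in arrays 1 to 3 and 8.48, 8.41 and 8.45 in arrays 4 to 6. No culture value reached tissue, and it fell by 0.40 ± 0.12 (limma adjusted p = 0.0217, or 0.0864 with the random block and up to 0.0736 without 1 array). Its other 3 probe sets read −0.16, −0.29 and −0.19, of which the second passed. Pfkfb1, the liver form, differed by −0.24 ± 0.10 and did not pass (limma adjusted p = 0.0725).

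In the lower steps Pgk1 rose, Eno2 fell and 4 others did not pass, while Gapdh was higher on all its control probe sets. Pgk1, phosphoglycerate kinase, which makes the first ATP of the pathway, read 11.62, 11.86 and 11.82 in tissue, 12.18, 12.26 and 12.21 in culture arrays 1 to 3 and 12.14, 12.09 and 12.11 in arrays 4 to 6. Every culture array lay above tissue, and it rose by 0.40 ± 0.07 (1.32-fold, limma adjusted p = 0.00128). A second probe set rose by 0.31 ± 0.06, and another, at 4.83 in both groups, lay under the means of bacterial control probe sets (4.86 to 6.62), which no rat RNA should bind. Gapdh, the dehydrogenase often taken as a constant reference, read 13.30, 13.41 and 13.41 at its 3′ end in tissue, 13.61, 13.69 and 13.63 in culture arrays 1 to 3 and 13.63, 13.54 and 13.57 in arrays 4 to 6. Culture lay above tissue on all 3 Gapdh probe sets, by 0.24 at the 3′ end, 0.39 in the middle and 0.38 at the 5′ end (exact permutation test, two-sided p = 0.0238 each, the smallest that 3 against 6 arrays allow, adjusted p = 0.0357). The 3′ minus 5′ difference of Gapdh, a sign of RNA quality, ran from 0.71 to 0.77 on tissue arrays, from 0.56 to 0.61 on MesPC replicates 1 to 3 and from 0.57 to 0.73 on replicates 4 to 6. For Hk1 it was 1.37 to 1.78, 1.098 to 1.28 and 1.39 to 1.54 in the same order, and for beta-actin 0.51 to 0.80, 0.35 to 0.49 and 0.54 to 0.67. On both, replicates 1 to 3 lay below all other arrays, and the part of this in the Gapdh and Hk1 values was not tested. Pgam1, the brain phosphoglycerate mutase, and Pgam2, its muscle form, differed by −0.032 ± 0.103 and −0.20 ± 0.09, and Eno3, muscle enolase, by −0.022 ± 0.089.

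Of the enolases, Eno2 fell and Eno1 did not pass. Eno2, neuron-specific enolase, read 10.59, 10.85 and 10.76 in tissue, 8.83, 8.78 and 8.89 in culture arrays 1 to 3 and 10.28, 10.31 and 10.28 in arrays 4 to 6. All culture arrays lay below tissue, those numbered 1 to 3 far below. It fell by 1.17 ± 0.40 (2.25-fold, limma adjusted p = 0.0404), by 1.90 in arrays 1 to 3 alone and by 0.45 in arrays 4 to 6 alone. The call of Eno2 ended with the random block (adjusted p = 0.0540) and without any 1 tissue array or any 1 of MesPC replicates 1, 2 and 3 (highest adjusted p = 0.113). Eno1, the enolase of most other cells, read 12.63, 12.91 and 12.56 in tissue, 13.17, 13.19 and 13.16 in arrays 1 to 3 and 12.75, 12.91 and 12.80 in arrays 4 to 6. Only arrays 1 to 3 stood clear of tissue, and the difference of 0.30 ± 0.12 did not pass (limma adjusted p = 0.0754). It passed without MesE11 replicate 2 or MesPC replicate 4 (lowest adjusted p = 0.0426).

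Within each array the difference between isoforms was set against its tissue mean, which shows unequal change only. Eno2 minus Eno1 shifted by −1.47 ± 0.41 (standard error from the group variances), or 2.77-fold, and was below all tissue arrays in 6 of 6 culture arrays. The shift ran from −2.45 to −2.31 on MesPC replicates 1 to 3, and from −0.64 to −0.51 on replicates 4 to 6. The exact permutation test gave a two-sided p of 0.0238, the smallest possible here, and 0.0794 after adjustment over the 5 isoform pairs compared. Aldoc minus Aldoa shifted the other way, by 0.24 ± 0.12 (exact p = 0.0476, adjusted 0.0794), above all tissue arrays in 5 of 6 culture arrays. Although the pair was named as a neuronal against a general form, Aldoc, the brain aldolase, is known in adult brain from astrocytes and Purkinje cells.

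Aldoc itself read 11.54, 11.54 and 11.28 in tissue, 11.67, 11.58 and 11.85 in culture arrays 1 to 3 and 11.83, 11.76 and 11.62 in arrays 4 to 6, above tissue throughout but by little. It rose by 0.27 ± 0.08 (limma adjusted p = 0.0273), and that call ended with the random block (0.226), with centring on ribosomal protein probe sets and without MesE11 replicate 3 (0.130). Aldoa, the muscle and general aldolase, read 13.13, 12.97 and 13.09 in tissue and 12.94 to 13.22 in culture, with overlap. The difference between Aldoc and Aldoa depended on the tissue array left out: it was 0.14 without MesE11 replicate 3 and 0.33 without replicate 2. Of the other pairs, Ldhb minus Ldha shifted by 0.43 ± 0.12 (exact p = 0.0476, adjusted 0.0794), Slc2a3 minus Slc2a1 by 0.050 ± 0.175 (exact p = 0.833) and Hk1 minus Hk2 by −0.32 ± 0.18 (exact p = 0.429, adjusted 0.536). None of the 5 pairs passed after adjustment.

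**Figure D2:**
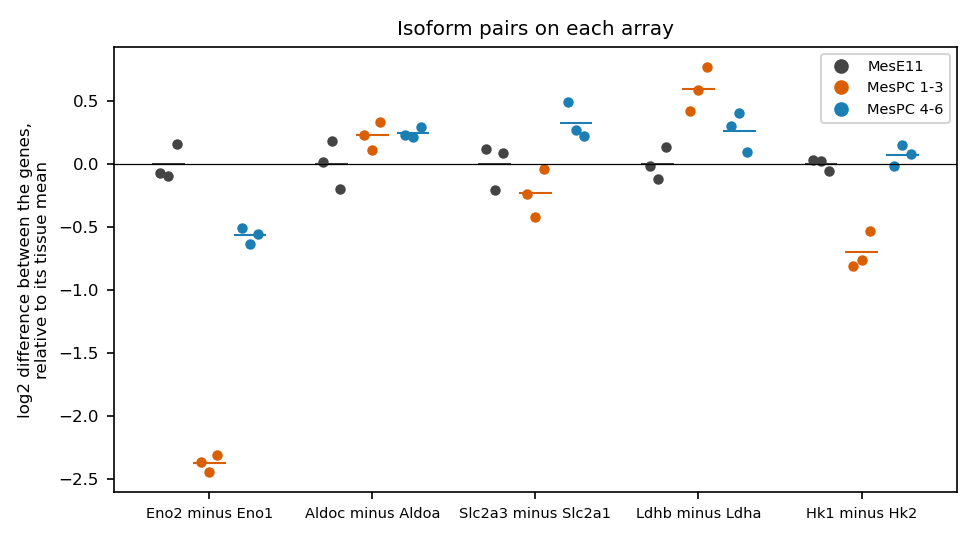
Difference in log2 intensity between the isoforms of each pair on each array, relative to the mean of that difference in tissue (y axis), for tissue (grey), culture arrays 1 to 3 (orange) and culture arrays 4 to 6 (blue), with bars for means. Eno2 minus Eno1 lies near −2.38 in arrays 1 to 3 and −0.57 in arrays 4 to 6, while Aldoc minus Aldoa lies at 0.23 and 0.25.

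Of 4 lactate genes, 3 rose and 1 fell. Ldhb, the heart-type subunit of lactate dehydrogenase, read 12.06, 12.09 and 12.04 in tissue, 12.80, 13.07 and 13.18 in culture arrays 1 to 3 and 12.55, 12.60 and 12.34 in arrays 4 to 6. Tissue arrays were tight, all culture arrays lay above them, and arrays 1 to 3 were highest. It rose by 0.69 ± 0.17 (1.61-fold, limma adjusted p = 0.0089). Ldha, the muscle-type subunit whose window above holds CACGTG, read 12.03, 12.16 and 11.86 in tissue, 12.33, 12.42 and 12.36 in arrays 1 to 3 and 12.19, 12.14 and 12.19 in arrays 4 to 6. Arrays 4 to 6 touched the tissue range, and it rose by 0.26 ± 0.08 (limma adjusted p = 0.0338). The call of Ldha ended with the random block (0.184), with renewed quantile normalization, with median centring, with culture arrays 4 to 6 alone and without MesE11 replicate 1 or 3 or MesPC replicate 1, 2 or 3 (adjusted p up to 0.155).

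The lactate transporters went opposite ways. Slc16a1, the general monocarboxylate transporter MCT1, read 8.51, 8.28 and 8.63 in tissue, 9.04, 9.16 and 8.99 in culture arrays 1 to 3 and 8.83, 8.70 and 8.76 in arrays 4 to 6. All culture arrays were above tissue, and it rose by 0.44 ± 0.11 (1.36-fold, limma adjusted p = 0.0122). Slc16a3, the exporter MCT4 of glycolytic cells and astrocytes, read 7.53, 7.40 and 7.73 in tissue and 7.24 to 7.37 in culture, below tissue throughout, and fell by 0.26 ± 0.07 (limma adjusted p = 0.0160). Slc16a3 was dim, with its probe set among the dimmest 40%. With the random block neither transporter passed (adjusted p = 0.0738 for Slc16a1 and 0.170 for Slc16a3). Slc16a1 also lost its call without MesE11 replicate 2 (adjusted p = 0.0593), and Slc16a3 without MesE11 replicate 3 (0.0678).

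Genes at the entry of pyruvate into mitochondria rose in 2 of 4 cases with 0 lower. Pcx, which carboxylates pyruvate to oxaloacetate and is known in brain from astrocytes, read 9.28, 9.14 and 9.10 in tissue, 10.28, 10.09 and 10.26 in culture arrays 1 to 3 and 9.91, 9.96 and 9.82 in arrays 4 to 6. The groups stood well apart (limma adjusted p = 0.000171). Most astrocyte, fibroblast and proliferation markers were also higher in culture, as given above, and the part of any of them was not tested. Pdha1, the catalytic subunit of pyruvate dehydrogenase, read 11.18, 11.16 and 11.16 in tissue and 11.40 to 11.55 in culture, alike in both culture sets, and rose by 0.28 ± 0.05 (limma adjusted p = 0.00186, or 0.0524 with the random block). Its dimmer probe set read 0.33 ± 0.13 higher and did not pass. Pdhb and Dld, further subunits of the complex, differed by −0.038 ± 0.053 and 0.032 ± 0.060.

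The kinases that switch pyruvate dehydrogenase off gave 1 rise, 1 fall and 1 gene that did not pass. Pdk2, the widespread kinase, read 8.77, 9.01 and 8.93 in tissue, 9.42, 9.53 and 9.59 in culture arrays 1 to 3 and 9.32, 9.47 and 9.24 in arrays 4 to 6, above tissue on every array. It rose by 0.52 ± 0.09 (1.44-fold, limma adjusted p = 0.00106), but a dimmer probe set of Pdk2 differed by −0.0053 ± 0.088. Pdk4, the kinase raised by fasting, fell by 0.30 ± 0.09 (limma adjusted p = 0.0245), with overlapping groups; its call ended with the random block (0.178), with culture arrays 1 to 3 alone and without MesE11 replicate 2 or 3 (highest adjusted p = 0.118). Pdk1, a HIF-1 target, read 9.10, 8.74 and 9.03 in tissue, 8.79, 8.62 and 8.69 in arrays 1 to 3 and 9.29, 8.95 and 9.02 in arrays 4 to 6. The groups overlapped, with a difference of −0.066 ± 0.145.

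In the pentose phosphate pathway 1 of 5 genes rose and 2 fell. Pgd, the second NADPH-making enzyme, read 10.50, 10.49 and 10.29 in tissue, 10.98, 10.79 and 10.89 in culture arrays 1 to 3 and 10.81, 10.78 and 10.59 in arrays 4 to 6. It lay above tissue on all culture arrays and rose by 0.38 ± 0.09 (limma adjusted p = 0.00647, or 0.0742 with the random block). Pgls, the lactonase one step before, fell by 0.28 ± 0.07 from 10.31 to 10.47 in tissue to 9.99 to 10.24 in culture (limma adjusted p = 0.0108, or 0.134 with the random block and 0.0519 without MesE11 replicate 1). Rpia, which isomerises ribose 5-phosphate, read 9.91, 9.88 and 9.81 in tissue, 9.71, 9.69 and 9.79 in arrays 1 to 3 and 9.36, 9.38 and 9.32 in arrays 4 to 6. It fell by 0.33 ± 0.12 (limma adjusted p = 0.0441), by 0.14 in arrays 1 to 3 alone and by 0.52 in arrays 4 to 6 alone. A dimmer Rpia probe set differed by −0.071 ± 0.108 and did not pass (adjusted p = 0.606). The call of Rpia ended with the random block (0.106), with arrays 1 to 3 alone and without any 1 tissue array or any 1 of MesPC replicates 4, 5 and 6 (highest adjusted p = 0.124). Tkt and Taldo1, the transketolase and transaldolase of the non-oxidative branch, differed by 0.072 ± 0.098 and −0.17 ± 0.08.

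Neither hypoxia gene of the list passed. Hif1a, the oxygen-regulated subunit of HIF-1, read 11.60, 11.65 and 11.61 in tissue, 11.58, 11.60 and 11.61 in culture arrays 1 to 3 and 11.69, 11.52 and 11.69 in arrays 4 to 6. The groups overlapped, with a difference of −0.0053 ± 0.053 (limma adjusted p = 0.942), while a dimmer probe set of Hif1a fell by 0.22 ± 0.07 (adjusted p = 0.0224). HIF-1 is controlled mainly at the protein, which was not measured. Adm, the peptide adrenomedullin and a HIF-1 target, read 6.76, 6.65 and 6.75 in tissue, 7.10, 7.18 and 7.11 in arrays 1 to 3 and 6.67, 6.65 and 6.71 in arrays 4 to 6. Arrays 1 to 3 alone stood above tissue, and the difference over all culture arrays was 0.18 ± 0.13 (limma adjusted p = 0.283). Its values in tissue and in arrays 4 to 6 lay close to the highest bacterial control mean of 6.62, though no group mean of any of the 38 genes lay at or below it.

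**Figure D3:**
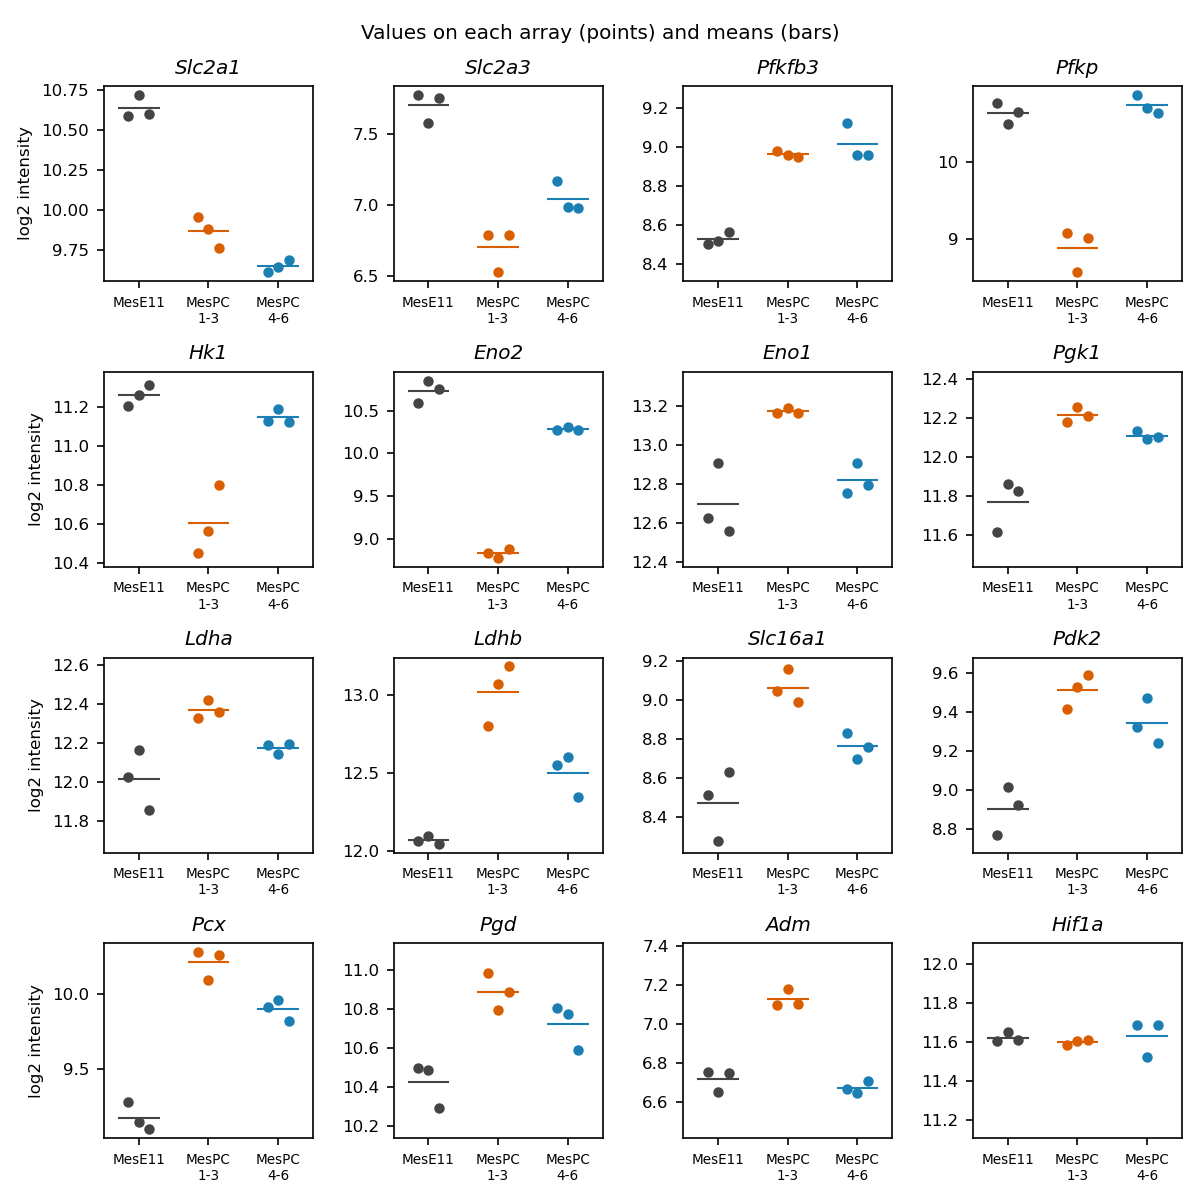
Log2 intensity (y axis, a scale of its own for each gene) of 16 genes on each array, as points with bars for means, in tissue (MesE11), culture arrays 1 to 3 and culture arrays 4 to 6. Slc2a1 and Slc2a3 lie below tissue in both culture sets, Pcx, Ldhb, Pgk1 and Pfkfb3 above it, and Pfkp, Hk1, Eno2 and Adm differ mainly between the culture sets.

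The culture arrays themselves were compared without a test, since the labels do not divide them and the division was recognised from these values. Arrays 1 to 3 and 4 to 6 were 0.5 or more apart without overlap for 4 of 38 genes (10.5%), against 8.68% of all genes, so this too was near the array as a whole. Without regard to size, 21 of 38 (55.3%) did not overlap, against 48.4%. Pfkp, Eno2 and Hk1 were lower in arrays 1 to 3 (5.89% of all genes were) and Ldhb higher (2.8%).

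Pfkp was chosen for its values here, which were 10.78, 10.49 and 10.66 in tissue, 9.08, 8.57 and 9.01 in culture arrays 1 to 3 and 10.88, 10.70 and 10.64 in arrays 4 to 6. Arrays 4 to 6 overlapped the tissue arrays while arrays 1 to 3 lay far below them, so the culture sets were 1.85 apart (pooled SD 0.21). Eno2 was 1.45 apart (pooled SD 0.04), Hk1 0.54 (0.13) and Ldhb 0.52 (0.17), the last with arrays 1 to 3 on top. Neuron markers ran with Pfkp, Eno2 and Hk1: 8 of 9 were 0.5 or more lower in arrays 1 to 3 without overlap, and 0 higher. Their part in these differences was not tested.

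Against tissue, culture arrays 1 to 3 alone gave 12 higher and 11 lower genes (52.7% of all genes passed) and arrays 4 to 6 alone gave 9 and 12 (50.1%), by limma at the same threshold. These comparisons share the tissue arrays. Pgam1 read 12.00, 12.03 and 12.03 in tissue, 12.17, 12.14 and 12.15 in arrays 1 to 3 and 11.90, 11.81 and 11.76 in arrays 4 to 6. The culture sets thus lay on either side of tissue.

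**Figure D4:**
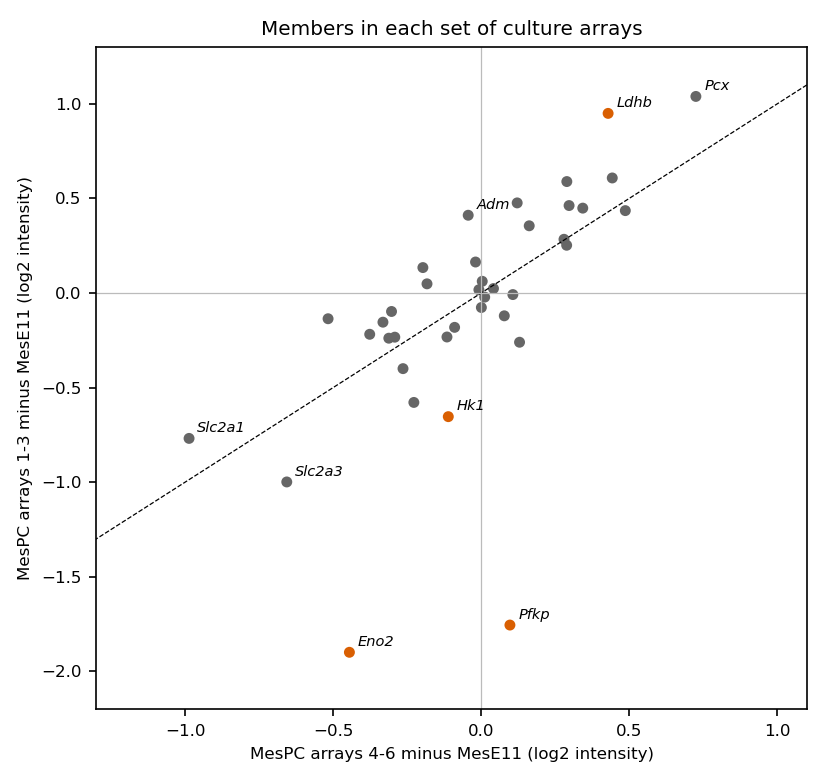
Difference from tissue in log2 intensity for the 38 genes in culture arrays 4 to 6 (x axis) and culture arrays 1 to 3 (y axis), with the dashed line marking equal differences and orange marking genes whose culture sets were 0.5 or more apart without overlap. Both axes share the tissue arrays; Pfkp and Eno2 lie far below the line at −1.76 and −1.90 on the y axis, and Ldhb above it at 0.95.

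Neighbouring pathways were read from lists of their other genes. Of 18 further glycolysis and gluconeogenesis genes measured, 1 rose and 3 fell: Adpgk, an ADP-dependent glucokinase, rose by 0.58 ± 0.09, and Slc2a5, a fructose transporter, and Fbp2, a fructose bisphosphatase, fell by 0.27 ± 0.09 and 0.23 ± 0.06. With the random block neither fall passed (adjusted p = 0.218 and 0.132). The median was −0.11. Of 17 further lactate and pyruvate genes 1 rose and 5 fell (median −0.082). Got1 and Got2, transaminases of the malate-aspartate shuttle, fell by 1.28 ± 0.22 and 0.47 ± 0.11, and Pdp1 and Pdp2, the phosphatases that switch pyruvate dehydrogenase on, by 0.69 ± 0.12 and 0.41 ± 0.07. Pdk3, a kinase acting against them, rose by 0.41 ± 0.11 (adjusted p = 0.0932 with the random block). Of 5 further pentose phosphate genes 2 rose and 1 fell (median 0.36): Rpe and Rbks, which act on ribulose and ribose, by 0.64 ± 0.12 and 0.36 ± 0.07, and Prps1, which makes phosphoribosyl pyrophosphate, fell by 0.24 ± 0.07 (adjusted p = 0.100 with the random block).

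Glycogen and hexose genes rose in 8 of 21 cases and fell in 2 (median 0.045). Gyg1, the primer protein of glycogen, rose by 0.90 ± 0.10, Sord, sorbitol dehydrogenase, by 0.74 ± 0.07, Phkb, a phosphorylase kinase subunit, by 0.72 ± 0.06 and Pygb, brain glycogen phosphorylase, by 0.60 ± 0.11, while Mpi and Pygl fell by 0.39 ± 0.08 and 0.37 ± 0.07. Genes of the tricarboxylic acid cycle list rose in 9 of 16 cases and fell in 1 (median 0.25). The list also held Aco1 and Idh1, cytosolic enzymes outside the cycle. Suclg2 and Idh2, subunits of succinyl-CoA ligase and the NADP-linked isocitrate dehydrogenase, rose by 1.60 ± 0.18 and 1.32 ± 0.15, Aco1 by 0.55 ± 0.06, and Ogdh, whose complex shares the subunit Dld with pyruvate dehydrogenase, fell by 0.41 ± 0.05.

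Other genes of a hypoxia list rose in 14 of 26 cases and fell in 4 (median 0.22), while Hif1a and Adm did not pass. The list mixes target genes with parts of the oxygen-sensing machinery, such as Arnt, Vhl and Epas1. Its counts are thus no measure of a response to hypoxia, and the part of hypoxia was not tested. Egln3, a HIF prolyl hydroxylase, rose by 1.73 ± 0.09 and Epas1, which encodes HIF-2 alpha, by 1.46 ± 0.07. Lox and Plod2, enzymes that also act on collagen, rose by 1.60 ± 0.33 and 1.29 ± 0.16. Cited2 and Ankrd37 fell by 0.68 ± 0.24 and 0.40 ± 0.08, and neither passed with the random block (adjusted p = 0.0859 and 0.0691). Lox and Plod2 moved next to the higher fibroblast markers given above. With the random block 9 genes of the hypoxia list were higher and 0 lower. The same block left 6 higher and 1 lower in the tricarboxylic acid list, 5 and 2 in the glycogen list, 1 and 0 in the glycolysis list, 0 and 4 in the lactate list and 2 and 0 in the pentose phosphate list. All these list genes were tested by limma with adjustment over all probe sets. Without the block 21.9% of all genes were higher and 22.7% lower, and with the random block 22.4% passed in either direction.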

How the data were processed

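Total RNA was hybridised to Affymetrix rat arrays. The deposited log2 values were made by the authors with RMA, per the submitters' processing notes, with version and settings not given in the sources used here. Usually RMA brings the probe intensities of all arrays to a common distribution, so a change in total RNA would not be seen. Of 15923 probe sets, 57 controls were left out and 15866 were fitted with limma 3.58.1 in R 4.3.3 (lmFit, eBayes, all 9 arrays, no covariate), with Benjamini-Hochberg adjustment over all 15866 and a threshold of 0.05. Gene names came from GEO's platform annotation: 12789 probe sets had 1 symbol and 312 several, which were not used, and 0 symbols changed through Entrez IDs. Isoform pairs and control probe sets were tested by exact permutation of the arrays; Gapdh, read only by controls, was not in the planned fit. On data simulated over 15866 probe sets for culture against tissue, 59 of 67 changes of 0.5, 67 of 67 of 1 and 66 of 66 of 2 (log2) were recovered with 5 false calls. The simulated noise was independent and took its spread within tissue and within each culture set. The difference between the culture sets, which widens the real culture spread, was left out. These figures may thus be too favourable for the real fit.

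The members and lists were chosen with earlier results of these data known. Values per array are given for isoform pairs, Gapdh, Hif1a, Adm, Pdk1 and the 14 called genes with the largest differences and no overlap; from each further list, up to 4 genes in the majority direction and 2 in the other are named. Pfkp and other genes given by array fall outside this rule and were chosen after their values were seen. Alternatives were other scalings, probe sets, filters and blocks, and leaving out each array.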

Additional observations from a re-analysis of the deposited data

Results flagged for a closer look

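On MesPC replicate 4, Pfkfb3 read 9.13, far from the other 5 culture arrays at 8.95 to 8.98; it was the only such array among the 38 genes, and chance alone marks about 1 in 20 groups. Pgam1 was above tissue on culture arrays 1 to 3 and below it on arrays 4 to 6, with the sets 0.33 apart; this difference was not tested.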

How the results depend on the processing

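The main counts were 10 higher and 9 lower genes. They were 7 to 12 and 8 to 12 under other scalings, other probe sets, the variance trend and either culture set alone. Without the dimmest 40% of probe sets 10 were higher and 6 lower. That filter left 16 of the called genes and 14 of the others, and each of these kept its result. The called genes it removed were Slc2a3, Slc16a3 and Pdk4. The random block gave 5 and 2, because it allows like arrays to share error; without 1 array in turn the counts were 8 to 11 and 4 to 8, the lower count being 4 without MesE11 replicate 1 or 2 and 5 without replicate 3, where fewer tissue arrays enter the fit. The replicate numbers did not pair the samples (correlations of deviations 0.084, −0.12 and −0.11); with the replicate block, in which MesPC replicates 4 to 6 have no tissue partner, 11 genes were higher and 12 lower (50.2% of all genes passed), Aldoc and Rpia no longer passed (adjusted p = 0.0662 and 0.165), and the pairs gave −2.38 for Eno2 minus Eno1, 0.23 for Aldoc minus Aldoa, −0.23 for Slc2a3 minus Slc2a1, 0.59 for Ldhb minus Ldha and −0.70 for Hk1 minus Hk2. Without 1 array in turn Aldoc minus Aldoa was 0.14 to 0.33 and Slc2a3 minus Slc2a1 −0.055 to 0.14 (−0.038 without MesPC replicate 4); with the second brightest probe sets the latter was 0.52. The count of 4 genes apart between culture sets was 3 to 4.

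Of the called genes only Pdk2 changed sign, to −0.0053 on its second probe set; the cause was not tested. The other sign changes were of genes that did not pass. After renewed quantile normalization they were Hk2 (0.049), Gpi (−0.056), Eno3 (0.097) and Dld (−0.012). After median centring they were Gpi (−0.033), Aldoa (−0.0050) and Dld (−0.0048), and after ribosomal centring Gpi (−0.026). With the mean of probe sets and with the second one, Pdk1 gave 0.038 and 0.14 and Tkt −0.052 and −0.18. In culture arrays 1 to 3 alone, and with the replicate block, Hk2 gave 0.048, Pfkl −0.0087 and Pgam1 0.13. In arrays 4 to 6 alone Gpi gave −0.0082, Pfkp 0.097, Eno3 0.078, Pdk1 0.13, Pdhb 0.00018, Tkt −0.020, Hif1a 0.011 and Adm −0.044. Without 1 array in turn the ranges that crossed 0 were −0.015 to 0.026 for Gpi, −0.014 to 0.12 for Pfkl, −0.017 to 0.067 for Aldoa, −0.069 to 0.015 for Pgam1, −0.068 to 0.065 for Eno3, −0.18 to 0.0072 for Pdk1, −0.0063 to 0.077 for Dld, −0.032 to 0.13 for Tkt and −0.020 to 0.013 for Hif1a.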

Other observations

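Probe sets of the same gene did not always move alike between the culture sets. The brightest Rpia probe set was 0.38 higher in culture arrays 1 to 3 than in arrays 4 to 6, and its dimmer one −0.34. For Pdk1 the same differences were −0.39 and 0.08. These genes were singled out after their values were seen, and the differences were not tested.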
